A study of Mus musculus with 8 samples.

Results

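Neutrophil granule and myeloid effector genes were examined for DNA methylation in mouse hematopoietic stem cells. The 10 genes were Mpo, Elane, Prtn3, Ctsg, Ltf, Ngp, Camp, S100a8, S100a9 and Lyz2. A CpG, the dinucleotide at which mammalian DNA is methylated, was assigned to a gene when it lay between 5000 bp before and 5000 bp after it. It was kept when at least 3 mice of each group had 10 or more reads over it, both strands together. The genes held 139 such CpGs of 1306811 in the series, and 26 of them lay in the windows of both Elane and Prtn3, which are neighbours on chromosome 10. The assay was enhanced reduced representation bisulfite sequencing (ERRBS), in which restriction fragments are sequenced after bisulfite has converted unmethylated cytosine. Its value at a CpG is the percentage of reads that are methylated, here called the level.

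The 4 conditional knockout (cKO) mice, numbered 25, 28, 45 and 46, carried the genotype label Atg12fl/flMx1-cre. In these mice loxP-flanked Atg12, a gene needed for autophagosome formation, is cut out by a Cre that interferon induces. The 4 control mice, numbered 1, 34, 36 and 37, carried the genotype label WT, whereas the series' design text describes loxP-flanked Atg12 without Cre. Both groups were C57BL/6 mice and were given poly(I:C), an inducer of interferon, at 4 weeks of age. Stem cells of both groups were sorted from bone marrow 2 to 3 months later and were not cultured; the sort took cells with CD150, c-Kit and Sca-1 on their surface and without lineage markers, CD48 or Flk2. The Mx1 promoter is active in more than stem cells, so other cells of the cKO mice may also have lost Atg12. Each library came from 1 mouse, and no label states whether it was male or female.

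Neutrophils fill their granules in sequence as they mature. Primary granules, made first, carry myeloperoxidase and the serine proteases, secondary granules carry lactoferrin and antimicrobial peptides, and calprotectin is stored in the cytosol. Hematopoietic stem cells stand several divisions above the first granule-forming cell, and granule genes are known to lose methylation as cells enter the granulocyte lineage. The deposited data hold no expression values.

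The libraries were compared first. Each table listed between 2038266 and 3366162 cytosines. Over the 1087161 autosomal CpGs with 10 or more reads in all 8 mice, median coverage ranged from 212 to 293 reads in the cKO mice and from 233 to 242 reads in the control mice. Mean level over those CpGs was 30.5% ± 0.268 in the cKO mice and 30.6% ± 0.654 in the control mice (SD, n = 4 each). Y-chromosomal cytosines made up 8.52 ± 0.472 per 10000 cytosines in the cKO mice and 1.45 ± 0.286 in the control mice (SD, n = 4 each), without overlap, so genotype and Y content cannot be told apart behind any difference given here. The coverage of CpGs at 80% or more in every mouse, relative to that of CpGs at 20% or less in every mouse, was 0.501 ± 0.101 in the cKO mice and 0.593 ± 0.211 in the control mice (SD, n = 4 each), and it was lowest in cKO 25, at 0.366, and control 34, at 0.293. Start windows, the CpGs within 1000 bp of a gene's start, were nearly unmethylated at 8 of 9 stem cell marker genes, from 0% at Procr to 0.296% at Gata2. The ninth, Slamf1, had too few CpGs. Among the B cell markers measured there, Ebf1 stood at 0.393%, Pax5 at 4.85% and Vpreb1 at 97.3%. The T cell marker Cd5 stood at 98.4%, and the erythroid markers Klf1 at 0.517% and Ermap at 95.6%. The other B, T and erythroid markers had fewer than 3 CpGs covered in all mice there.

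The fragments of this assay are cut at CCGG, so the sequence before each gene's start is given first. In the 250 bases before the start, the 10 genes held from 1 CpG (Lyz2) to 7 CpGs (Ctsg), whereas the median over 20085 promoters of autosomal protein-coding genes was 10 CpGs. CCGG, which reads the same on both strands, occurred before Prtn3, Ltf, Ngp and Camp and was not found in this window before the other 6 genes; 57.0% of all promoters held it. A single promoter CpG was kept, 19 bp before the start of Ltf. The promoters of Ltf, of Ctsg, with the most CpGs and none kept, and of the calprotectin genes, with no CpG listed in any mouse, are shown 5′ to 3′ on the gene's strand. They are the RefSeq sequences of GRCm38.p6, with every CpG in capitals.
Ltf, chr9:111019042-111019291, plus strand: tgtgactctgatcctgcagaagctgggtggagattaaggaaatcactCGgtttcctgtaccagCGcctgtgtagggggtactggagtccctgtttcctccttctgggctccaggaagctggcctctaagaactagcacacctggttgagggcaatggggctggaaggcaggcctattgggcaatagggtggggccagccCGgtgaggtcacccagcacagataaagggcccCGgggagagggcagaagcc
Ctsg, chr14:56102575-56102824, minus strand: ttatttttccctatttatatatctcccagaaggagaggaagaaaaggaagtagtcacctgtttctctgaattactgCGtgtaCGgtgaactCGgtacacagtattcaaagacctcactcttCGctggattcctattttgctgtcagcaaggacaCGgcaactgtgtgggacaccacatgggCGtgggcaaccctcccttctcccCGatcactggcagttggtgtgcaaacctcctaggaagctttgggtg
S100a8, chr3:90668821-90669070, plus strand: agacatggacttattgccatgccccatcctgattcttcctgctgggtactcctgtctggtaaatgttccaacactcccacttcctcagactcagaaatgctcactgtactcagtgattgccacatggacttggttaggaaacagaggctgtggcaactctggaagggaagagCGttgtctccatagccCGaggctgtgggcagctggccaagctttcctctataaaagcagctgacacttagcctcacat
S100a9, chr3:90695722-90695971, minus strand: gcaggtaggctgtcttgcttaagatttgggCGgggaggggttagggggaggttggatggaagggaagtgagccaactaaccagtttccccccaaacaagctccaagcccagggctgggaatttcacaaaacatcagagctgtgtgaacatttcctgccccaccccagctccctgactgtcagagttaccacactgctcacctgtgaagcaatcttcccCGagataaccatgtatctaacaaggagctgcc

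Most measured CpGs in the windows of the granule genes were heavily methylated in stem cells of both genotypes. Of the 139 CpGs, 103 (74.1%) had a mean level over mice of 80% or more, 24 (17.3%) were at 20% or less, and 12 (8.63%) lay between. Over all 1278034 kept autosomal CpGs these shares were 32.9%, 59.8% and 7.35%. The median level was 93.6% for the granule gene CpGs and 1.23% for all kept autosomal CpGs. The windows reach beyond the genes: 28 of the CpGs lay past the end of Elane, within other genes, and 7 past the end of Lyz2. Within 1000 bp of a start lay 2 CpGs at Mpo, 1 at Ltf and 1 at Ngp. The CpGs of the windows and all kept CpGs were not matched for place or CpG density. Of the 24 low CpGs, 20 lay in the Prtn3 window, 2 at Mpo and 2 at Ltf. The median CpG ranged over 16.5 percentage points between its lowest and highest mouse, 19 CpGs had the same level in every covered mouse, and 14 spanned 50 points or more. A level is the share of methylated molecules, so a mixture of cells and a mixture of alleles cannot be told apart.

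The genes were unequally covered. The windows held 54 kept CpGs at Elane, 40 at Ltf, 28 at Prtn3, 23 at Mpo, 7 at Lyz2, 5 at Ngp, 4 at Ctsg, 4 at Camp and 0 at S100a8 and S100a9. The median protein-coding gene held 47, and 13.7% of 20665 genes held none. Over the 7 genes with 3 or more CpGs covered in all 8 mice, window levels were near 90% at Mpo, Ctsg, Camp and Lyz2, 84.4% at Ltf, 49.8% at Elane and 10.8% at Prtn3. The median over 16740 measured protein-coding genes was 19.9%, with 12.3% of them at 80% or more.

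**Figure D1:**
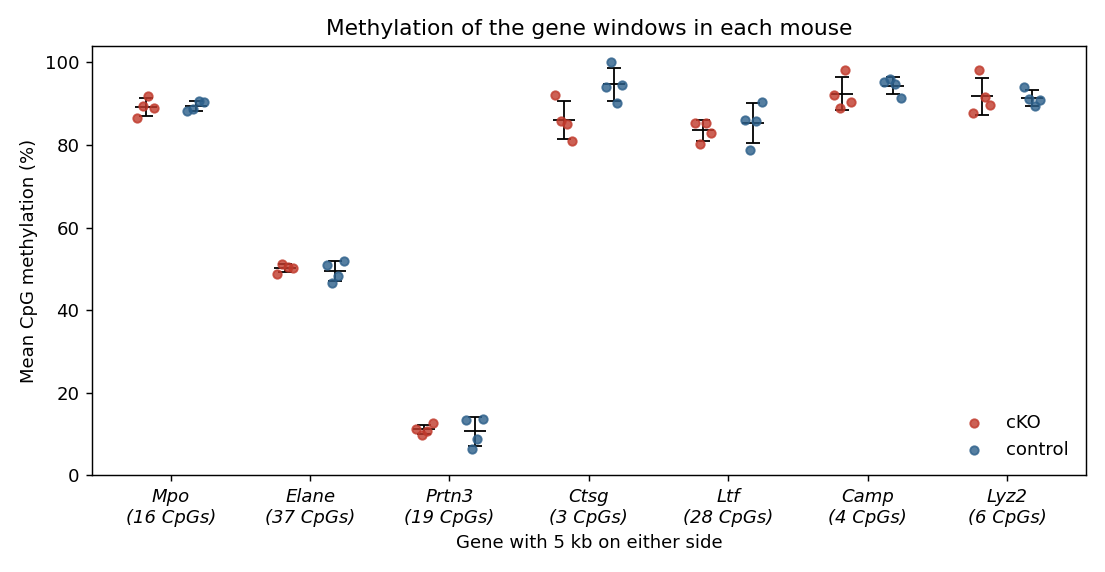
Mean CpG methylation (%, y axis) of the gene windows with at least 3 CpGs covered in all 8 mice, by gene (x axis). Each point is a mouse, cKO (red) left of control (blue), with the mean and SD of each group; Prtn3 lies near 11%, Elane near 50% and the other 5 genes above 78% in every mouse.

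No granule gene window passed the threshold for a difference by genotype. All 7 tested windows had an adjusted p of 0.995 or more in limma's moderated test with Benjamini-Hochberg adjustment over 12794 windows, of which 0 (0%) were called at 0.05. The mean of the cKO mice was below that of the control mice in 4 of the 7 and above it in 3, with a median difference of -0.276 percentage points, beside -0.0328 over all windows tested. Of all windows tested, 52.2% had a lower mean in the cKO mice. Only Ctsg reached an unadjusted p under 0.05 among the 7, as did 4.35% of all windows.

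Myeloperoxidase, encoded by Mpo, makes hypochlorous acid in primary granules and is among the earliest myeloid genes to be switched on. Its window mean was 86.5, 89.5, 91.8 and 89.1% in cKO mice 25, 28, 45 and 46, against 88.2, 88.8, 90.7 and 90.3% in control mice 1, 34, 36 and 37. The groups overlapped, and the difference was -0.276 percentage points (95% interval -3.67 to 3.12). Of its 23 CpGs, 21 lay inside the gene (chr11:87793784-87804412) and 18 were at 80% or more. The sequence before the start differed from the body. The CpG 453 bp before the start was at 0% in 7 of 8 mice and at 23.7% in cKO 46, while the CpG 183 bp farther out, at -636, ranged from 32.6 to 100% in the cKO mice and from 40 to 100% in the control mice. Both also lie in Gm34064, a long noncoding RNA gene that overlaps the start of Mpo.

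Inside Mpo, 2 neighbouring CpGs departed from the methylated body. The CpG 6412 bp after the start was at 0% in the 3 covered cKO mice, and at 47.6, 0, 23.1 and 0% in control mice 1, 34, 36 and 37. Its neighbour 29 bp before it had 25.5, 100 and 100% in cKO mice 25, 28 and 46, against 61.4, 35.8, 30.8 and 100% in the control mice. Coverage went down to 10 reads at the first and 11 reads at the second. Near the end of the gene, 2 CpGs averaged 86.9% ± 7.92 in the cKO mice and 96.5% ± 5.59 in the control mice (SD, n = 4 each), and the groups overlapped. The last of them, the Mpo CpG of smallest p, had 92.4, 77.7, 100 and 74.0% in the cKO mice and 100, 97.2, 98.6 and 83.9% in the control mice, a difference of -8.93 points (quasi-binomial model moderated with limma, adjusted p = 0.767). That difference was -4.92 points without cKO 46 and -13.6 points without cKO 45.

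**Figure D2:**
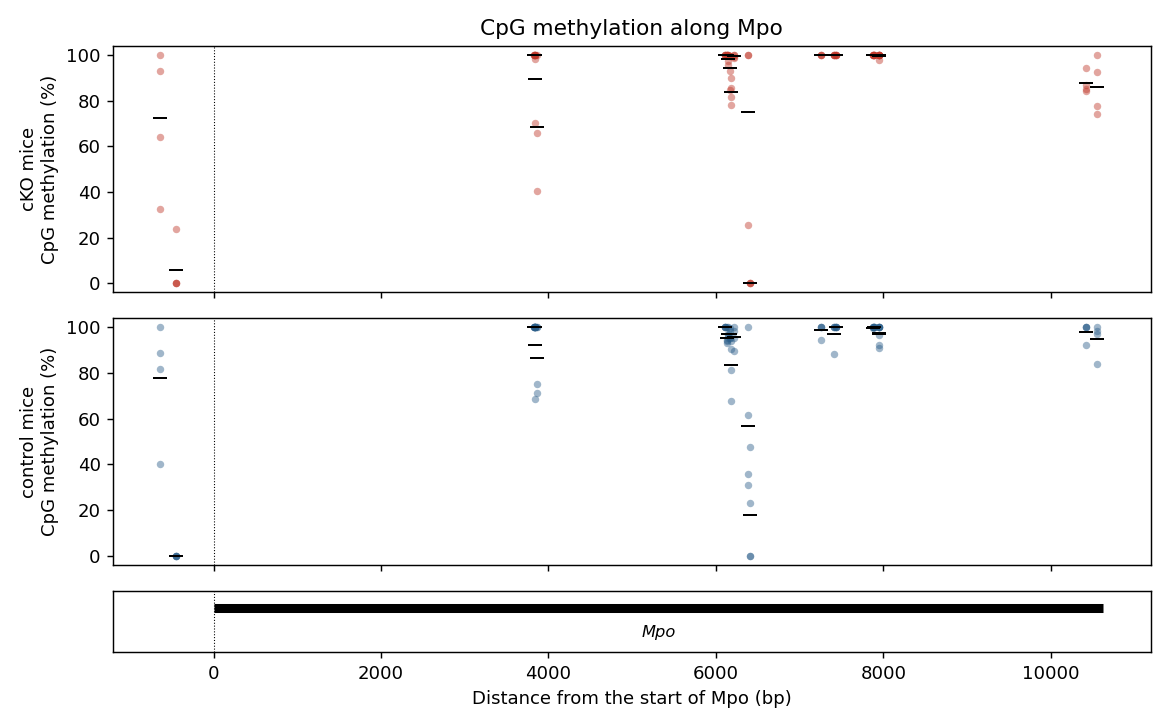
CpG methylation (%, y axis) along Mpo by distance from its start (bp, x axis), with cKO mice above and control mice below; points are mice, black ticks group means, and the bar is the gene. The CpG at -453 lies at 0% in 7 of 8 mice, and most CpGs of the body lie near 100%.

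Prtn3 and Elane encode proteinase 3 and neutrophil elastase, serine proteases of primary granules that stand in a row on chromosome 10. No CpG inside Elane itself (chr10:79886312-79888216) was kept. Of the 54 CpGs of its window, 23 lay in Prtn3, 10 in the pseudogene Gm19810, 18 in Cfd, which encodes complement factor D, and 3 in no gene. The Elane window mean was 48.7, 51.2, 50.5 and 50.3% in the cKO mice, against 51.0, 46.7, 48.2 and 51.8% in the control mice. This mean near 50% was made of unmethylated CpGs within Prtn3 and highly methylated CpGs in Gm19810 and Cfd, and few CpGs stood at a middle level. The difference was 0.737 points (95% interval -2.08 to 3.55).

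Prtn3 was the only one of the 7 measured windows with a low mean. It had 11.2, 9.81, 10.7 and 12.6% in the cKO mice, against 13.5, 6.46, 8.79 and 13.7% in the control mice. The cKO mice lay within the range of the control mice, and the difference was 0.465 points (95% interval -3.30 to 4.23). Over all kept CpGs that a mouse covers, the mean was 28.7% in the cKO mice and 24.96% in the control mice. This adds methylated CpGs near the end of the gene, but not in every mouse. Control 36 covered none of the 6 CpGs from chr10:79882874 to 79882920. These 2 means are therefore not over the same CpGs and do not measure a difference in level. The start of Prtn3 was not among the kept CpGs. The first measured CpGs lay 1591 and 1608 bp after it, and both were at 0% in every covered mouse. A stretch of 12 CpGs over 362 bp followed (chr10:79881751-79882112), with a mean level of 1.12% and a range over mice from 0.0731 to 1.98%. Its highest CpG, at 79881969, averaged 6.35% ± 5.64 in the cKO mice and 10.9% ± 3.76 in the control mice (SD, n = 4 each). At least 92 reads lay over each CpG of this stretch in every mouse.

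Past this stretch the level climbed to full methylation before the end of the gene. The next 5 CpGs (chr10:79882494-79882633) averaged 23.2% ± 5.05 in the cKO mice and 22.1% ± 7.89 in the control mice (SD, n = 4 each), but that mean joined unlike neighbours. The CpG at 79882608 had 68.8, 73.0, 76.0 and 85.6% in the cKO mice and 80.9, 59.0, 66.0 and 80.5% in the control mice. The CpG at 79882623, 15 bp on, had 12.8, 7.32, 21.6 and 14.6% in the cKO mice and 22.2, 0, 17.9 and 26.0% in the control mice. The first was thus higher than the second in all 8 mice, each with 105 or more reads. A further 6 CpGs (chr10:79882874-79882920) reached means from 94.1 to 100%. The Prtn3 CpG of smallest p was one of these, at 79882883, with 74.7, 100, 100 and 84.0% in the cKO mice and 100% in control mice 1, 34 and 37 (difference -10.3 points, adjusted p = 0.799; control 36 was not covered and did not enter). Without cKO 25 it was -5.32 points.

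Just past the end of Prtn3 the level fell again before Elane began. CpG 79883244 averaged 62.1% ± 17.8 in the cKO mice and 57.5% ± 17.3 in the control mice, and CpG 79883391 averaged 19.8% ± 19.2 in the cKO mice and 19.2% ± 12.7 in the control mice (SD, n = 4 each). Beyond Elane, the CpGs covered in all mice averaged 94.5% ± 5.50 in the cKO mice and 86.4% ± 4.92 in the control mice at Gm19810 (SD, n = 4 each). This 1 kb region, the Elane region of smallest p, differed by 8.13 points (95% interval 0.131 to 16.1; limma, adjusted p = 0.945) and the groups overlapped. Within it the CpG at 79888816 had 100, 100, 87.1 and 100% in the cKO mice and 86.7, 0, 73.6 and 62.5% in the control mice. The groups did not overlap there, at an adjusted p of 0.777, and the 0% of control 34 rested on 20 reads. The CpG of smallest p in the Elane window, at 79888798, was at 100% in every cKO mouse and at 88.2, 100, 90.8 and 64.5% in the control mice (difference 14.1 points, adjusted p = 0.771). It was 7.01 points without control 37, which had 31 reads there. At Cfd the 2 stretches of CpGs averaged 95.4% ± 0.626 and 85.7% ± 5.45 in the cKO mice, against 94.9% ± 2.18 and 89.3% ± 2.22 in the control mice (SD, n = 4 each).

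**Figure D3:**
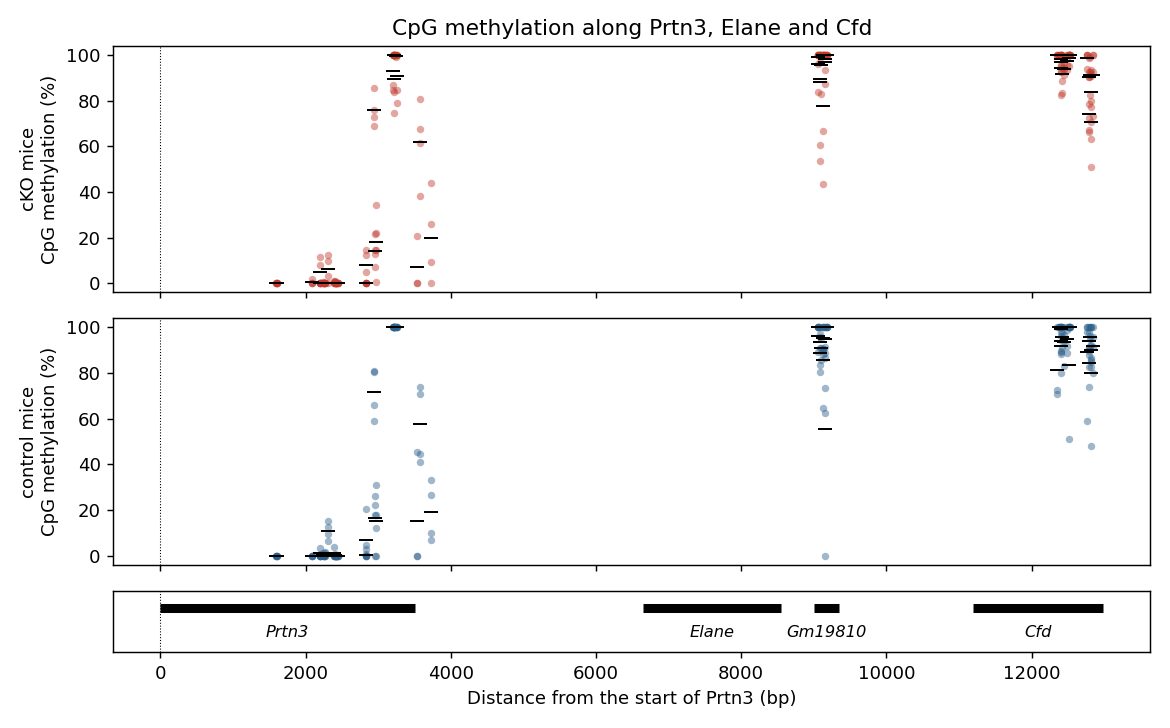
CpG methylation (%, y axis) along Prtn3, Elane, the pseudogene Gm19810 and Cfd by distance from the start of Prtn3 (bp, x axis), with cKO mice above and control mice below. Points are mice and black ticks group means; CpGs within Prtn3 lie near 0%, then climb towards its end, and those at Gm19810 and Cfd lie mostly above 80%.

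Cathepsin G, encoded by Ctsg, is a chymotrypsin-like protease of primary granules whose gene sits among granzyme and mast cell protease genes on chromosome 14. All 4 kept CpGs lay inside the gene (chr14:56099885-56102574), 1784 to 1883 bp after its start. The mean over the 3 CpGs covered in all mice was 92.0, 85.8, 85.2 and 81.0% in the cKO mice, against 94.0, 100, 90.2 and 94.5% in the control mice. Of the cKO mice, 3 lay below every control mouse, and cKO 25 lay above control 36. The difference was -8.63 points (95% interval -15.1 to -2.13) and did not pass after adjustment (limma, adjusted p = 0.995). A single CpG carried it, at 56100691, with 78.5, 73.7, 55.6 and 51.1% in the cKO mice and 85.0, 100, 85.6 and 87.2% in the control mice. Every cKO mouse was lower than every control mouse at that CpG, with a difference of -24.7 points (adjusted p = 0.746). Control 34 had 11 reads there, for which the 95% Wilson interval ran from 74.1 to 100%, and the other mice had from 118 to 266 reads. Its 2 neighbours covered in all mice, 77 and 90 bp away, averaged 98.0 and 95.4% in the cKO mice and 98.4 and 96.1% in the control mice.

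Lactoferrin, the iron-binding protein of secondary granules, is encoded by Ltf (chr9:111019292-111042766). Its window mean was 85.4, 80.2, 85.4 and 83.0% in the cKO mice, against 86.1, 78.9, 85.9 and 90.4% in the control mice, with overlap. The difference was -1.81 points (95% interval -7.56 to 3.95). It was -3.96 points without control 34, -0.708 points without cKO 28 and -0.119 points without control 37. The CpG 19 bp before the start, the last capital pair in the sequence shown, was at 0% in cKO mice 25, 28 and 46, and at 0, 0, 0 and 0.524% in control mice 1, 34, 36 and 37; cKO 45 was not covered. Methylated sequence lay on both sides of it. The CpG at -1433 was at 100% in the 3 covered cKO mice and at 88.0 to 100% in the 3 covered control mice, and the next CpG downstream, at +2994, was at 94.1% or more in all 8 mice. The 4 CpGs from +2994 to +3080 averaged 96.8% ± 3.31 in the cKO mice and 92.7% ± 6.42 in the control mice (SD, n = 4 each). Across the gene body, the mean level per CpG over mice ran from 82.1 to 100%.

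Ltf also had CpGs of low or uneven level beyond its end. The CpG at +24336 had no common level, with 41.3, 2.38, 100 and 0% in the cKO mice and 44.7, 33.3, 66.7 and 100% in the control mice, from 13 reads upward. The 3 CpGs from +28138 to +28294 (chr9:111047430-111047586), in no annotated gene, averaged 12.1, 9.80, 0 and 14.1% in the cKO mice, against 35.4, 24.9, 30.7 and 42.0% in the control mice. This mean was lower in every cKO mouse than in every control mouse, but of the 3 CpGs only the first separated the groups by itself. The second had 19.8, 0, 0 and 42.4% in the cKO mice and 56.4, 37.8, 45.4 and 6.67% in the control mice. The third had 16.7, 29.4, 0 and 0% in the cKO mice and 27.1, 0, 16.7 and 75.9% in the control mice. The first of them was at 0% in all 4 cKO mice, and at 22.8, 36.8, 30 and 43.5% in the control mice. Counts of 0 in 106, 86, 54 and 67 reads allow levels of up to 2.83, 3.49, 5.56 and 4.48% in the cKO mice. These limits take 3 counts over the reads, and the upper 95% Wilson limits of the same mice were 3.50, 4.28, 6.64 and 5.42%. The 95% Wilson intervals of the control mice ran from 13.8% at the lowest to 57.8% at the highest. With a difference of -33.3 points it had the smallest p of all CpGs of the 10 genes, and its adjusted p over 313039 tested CpGs was 0.718 (quasi-binomial model moderated with limma). The 1 kb region around it, in which a further CpG lay just outside the Ltf window, averaged 31.2% ± 4.73 in the cKO mice and 49.9% ± 5.44 in the control mice (SD, n = 4 each). That region differed by -18.7 points (95% interval -27.8 to -9.54; limma, adjusted p = 0.945), without overlap of the groups.

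Within the gene the CpG at +6729 went the other way. It had 96.1, 100, 100 and 99.6% in the cKO mice and 77.0, 80, 88.0 and 87.5% in the control mice, a difference of 15.8 points without overlap (adjusted p = 0.738). A CpG at +21487 also did not overlap between the groups, with 100% in every cKO mouse and 94.9, 0, 99.0 and 93.7% in the control mice, where the 0% of control 34 rested on 12 reads. The region holding that CpG averaged 96.3% ± 0.873 in the cKO mice and 89.9% ± 8.01 in the control mice (SD, n = 4 each; adjusted p = 0.945).

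**Figure D4:**
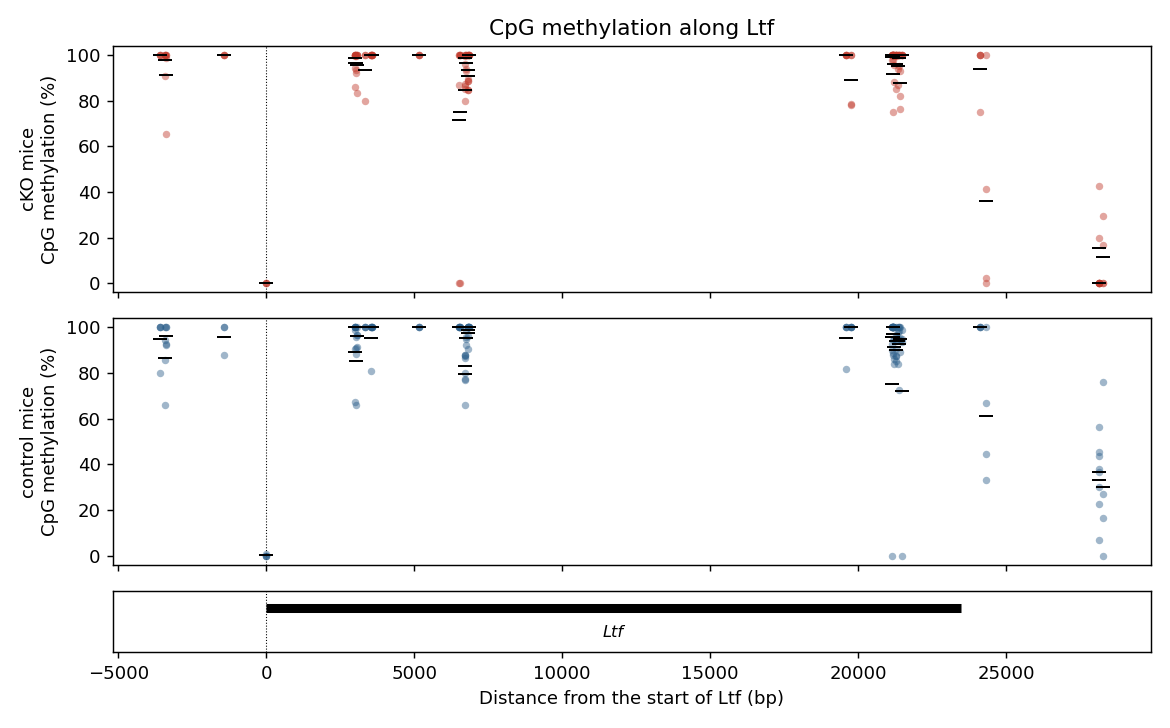
CpG methylation (%, y axis) along Ltf by distance from its start (bp, x axis), with cKO mice above and control mice below; points are mice, black ticks group means, and the bar is the gene. The CpG at -19 lies at 0 to 0.524%, the body lies mostly above 80%, and the 3 CpGs farthest to the right average 9.02% in cKO mice and 33.2% in control mice.

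Ngp and Camp, both on chromosome 9, encode neutrophilic granule protein and the antimicrobial peptide precursor cathelicidin, products of secondary granules. No CpG of the Ngp window was covered in all mice. Its 5 kept CpGs lay at -4375, -4242, +284, +6954 and +7156, the last 2 within the neighbouring gene Klhl18. The CpG at +284 was at 100% in all 6 covered mice, in contrast to the CpG before Ltf. The single tested CpG, at -4375, was at 100% in every cKO mouse and at 61.6, 97.0 and 100% in control mice 1, 36 and 37 (difference 13.8 points, adjusted p = 0.800; control 34 was not covered and did not enter). Without control 1 the difference was 1.52 points. The 4 kept CpGs of Camp lay within 78 bp inside the gene (chr9:109847377-109849456). Their mean was 92.2, 89.0, 98.2 and 90.5% in the cKO mice, against 95.2, 96.0, 94.8 and 91.4% in the control mice, with overlap (difference -1.88 points, 95% interval -7.02 to 3.26). This was -3.78 points without cKO 45, -2.86 points without control 37, -1.22 points without cKO 46 and -0.718 points without cKO 28. The lowest of the 4 CpGs, also that of smallest p, had 87.5, 67.6, 100 and 92.8% in the cKO mice, against 93.0, 86.4, 91.7 and 87.4% in the control mice (difference -2.64 points, adjusted p = 0.954), and the sign turned without cKO 28, to 3.81 points. The Camp region of smallest p differed by -1.97 points (adjusted p = 0.956).

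S100a8 and S100a9 encode the subunits of calprotectin, a calcium- and metal-binding protein that is among the most abundant of neutrophils. Neither gene had a kept CpG. The tables listed 9 CpGs for S100a8 and 10 for S100a9, each in 1 or 2 mice. Near the start of S100a8, the CpGs at +15 and +29 had 12 reads each in cKO 25 and in control 37. The first was at 100% in both mice, and the second was at 100% in cKO 25 and 0% in control 37. The CpGs at +464 and +475 were at 100% in cKO 28 and control 37. Of the CpGs listed for S100a9, those at -416 and -3390 were at 0%, in control 1 with 13 reads and in control 34 with 20 reads, and the others were at 100%. These values are single mice and were not compared.

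Lyz2 encodes lysozyme M, which cleaves bacterial cell walls and is the gene whose promoter drives a widely used myeloid Cre. All of its 7 kept CpGs lay past its end, 6694 to 6874 bp from the start and outside any gene. The mean over 6 of them was 87.8, 98.2, 91.7 and 89.6% in the cKO mice, against 94.2, 91.2, 89.3 and 90.9% in the control mice, with overlap (difference 0.391 points, 95% interval -5.11 to 5.89). The CpG of smallest p, at 117275578, was at 100% in every cKO mouse and at 100, 47.5, 93.6 and 85.0% in the control mice (difference 18.5 points, adjusted p = 0.733). The 47.5% of control 34 came from 40 reads, and without that mouse the difference was 7.13 points. The other 6 CpGs had means from 89.2 to 93.7% over mice. The 1 kb region of these CpGs had an adjusted p of 0.992.

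**Figure D5:**
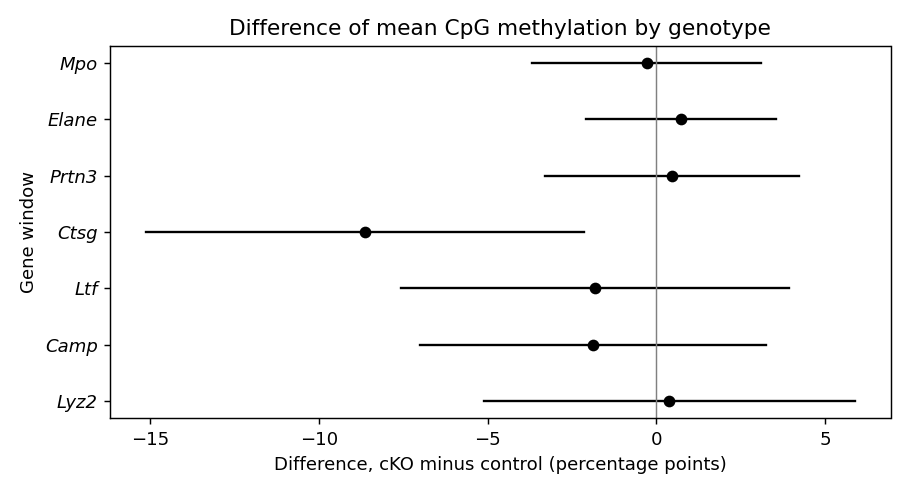
Difference of mean CpG methylation, cKO minus control (percentage points, x axis), for each gene window tested (y axis), with 95% intervals as lines. The interval of Ctsg, -15.1 to -2.13, lies below 0 and the other 6 include 0; none passed after adjustment.

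Over the 10 genes, differences by genotype were few and of both signs. Of the 139 CpGs, 66 had a mean level between 5 and 95% and were tested. The quasi-binomial model moderated with limma called 0 of them, beside 23 of 313039 CpGs (0.00735%) in the series, and limma on log2 ratios called 0 in the series. Of the 66, 39 had a lower and 27 a higher mean in the cKO mice, with a median of -3.33 points beside -0.902 over all tested CpGs. Over all tested CpGs, 53.7% had a lower mean in the cKO mice, and neighbouring CpGs are not independent. Before adjustment, 5 of the 66 (7.58%) had p under 0.05, beside 6.52% of all tested CpGs: 3 at Ltf, 1 at Ctsg and 1 at Lyz2. The groups did not overlap at 5 CpGs (7.58%), beside 3.11% of all tested CpGs. In the cKO mice 2 of them were lower, beside 1.54% of all tested CpGs, and 3 were higher, beside 1.57%. Of these 5, the 2 with 0% in control 34 rested on 20 and 12 reads in that mouse. Of 9 tested regions of 1 kb, 0 were called, as were 0 of 40477 (0%) in the series. Of the 9, 3 had an unadjusted p under 0.05, beside 4.85% of all regions, and 2 did not overlap between the groups, beside 3.36%. Start windows could not be compared, because no gene of the 10 had 3 CpGs covered in all mice within 1000 bp of its start, and 0 of 1431 (0%) were called in the series. Reads pooled over the mice of a group gave the other sign of difference at 6 of the 66 CpGs.

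Single mice that stood far from the rest had few reads there. Of 1059 levels of a CpG in a mouse, 11 lay 50 points or more from that CpG's median over mice. All 11 had between 10 and 46 reads, with a median of 21, beside a median of 134 over all levels. Control 34 held 4 of the 11, covered 124 of the 139 CpGs and had a median of 62 reads over them, the lowest of the 8 mice, whose other medians ran from 118 to 233. Without this mouse the difference was -32.1 points at the Ltf CpG at +28138, -21.2 points at the Ctsg CpG and 7.13 points at the Lyz2 CpG.

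Other genes of the same granules and cells gave 0 called windows, beside 0 of 12794 (0%) in the series. Group means are given ± SD (n = 4 each). Of 3 further primary granule genes tested, all 3 had a lower mean in the cKO mice, as did 52.2% of all windows tested. Srgn, whose proteoglycan packs granule proteases, averaged 46.3% ± 1.08 in the cKO mice and 47.3% ± 1.44 in the control mice. Prss57, a granule serine protease, averaged 14.6% ± 0.908 in the cKO mice and 14.9% ± 0.472 in the control mice. Of 11 further secondary and tertiary granule genes, 5 had a lower and 6 a higher mean in the cKO mice. Hp, which encodes haptoglobin, averaged 88.6% ± 4.80 in the cKO mice and 78.0% ± 6.01 in the control mice (SD, n = 4 each), a difference of 10.6 points (limma, adjusted p = 0.995). The integrin gene Itgb2l averaged 91.0% ± 0.822 in the cKO mice and 92.8% ± 1.71 in the control mice. Of 9 further lysozyme and phagocyte genes, 6 had a lower and 3 a higher mean. The integrin gene Itgb2 averaged 85.4% ± 1.81 in the cKO mice and 86.8% ± 0.642 in the control mice, and the galectin gene Lgals3 averaged 56.1% ± 1.42 in the cKO mice and 54.8% ± 2.73 in the control mice.

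The gene clusters around the calprotectin and cathepsin G genes were also examined. Both tested S100 genes had a slightly lower mean in the cKO mice, S100a13 at 7.53% ± 0.692 in the cKO mice and 7.71% ± 0.659 in the control mice, and S100a6 at 58.0% ± 1.64 in the cKO mice and 58.1% ± 5.20 in the control mice (SD, n = 4 each). The windows of S100a1 and S100a11 were nearly unmethylated, at 0.664% and 0.134% over mice. That of S100a4, with 3 CpGs covered in all mice, was at 97.5%, so the measured S100 genes spanned almost the full range. S100a11 lies apart from the calprotectin genes, at chr3:93520496-93526288, whereas S100a8 starts at 90669071. Of the 13 granzyme and mast cell protease genes listed beside Ctsg, 8 had no kept CpG. The single one tested, Gzme, averaged 93.6% ± 3.04 in the cKO mice and 93.9% ± 1.46 in the control mice (SD, n = 4 each; adjusted p = 0.999).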

How the data were processed

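The deposited tables list cytosines of CpGs, 1 table per mouse. Per the file headers, they give coverage, a count of reads made by the authors, and the percent of those reads that showed C (methylated) or T. No listed cytosine had under 10 reads. CASAVA 1.8.2, Bismark and the mm10 build are named in the submitters' processing notes; the sources used here do not state filters or how duplicates were treated. Per the labels' protocols, size selection was changed for low DNA input. PCR copies carry no molecular identifiers and are not independent, so intervals and limits at a count of 0 cover counting error only.

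Methylated reads were recovered as coverage times percent, rounded, and both strands of a CpG were added. Genes and starts came from RefSeq for GRCm38.p6, the mm10 build, without exons, so exons and introns were not told apart; all 254362 listed positions within promoters fell on a CG of those sequences. CpGs with a mean level from 5 to 95% were tested with a logistic model of reads on genotype over the 8 mice. Its quasi-binomial dispersion was moderated with limma 3.58.1 in R 4.3.3, and a mouse under 10 reads at a CpG did not enter. Windows and 1 kb regions with at least 3 CpGs of 10 reads in all 8 mice were compared as means over those CpGs by limma's moderated test with a trend. P-values were adjusted by Benjamini-Hochberg over all features on chromosomes 1 to 19, with a threshold of 0.05. The scripts were tested on simulated data.

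The members and gene lists were chosen with earlier results of these data known. Named were all 10 genes, the CpG and region of smallest p in each, any called CpG or region among them (there was none), neighbours sharing CpGs, and in each further list the 2 genes of smallest p; CpGs that make up a profile, lie nearest a start or separate the groups were named after their values were seen, as were the promoters without kept CpGs. Separate cultures or litters are not stated beyond 1 mouse per library. Alternatives changed the coverage minimum, filters, model, window and mice used.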

Additional observations from a re-analysis of the deposited data

Results flagged for a closer look

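Within-group gaps were checked in 36 groups of 4 mice. Chance flags about 1 in 20 when groups are distinct, unselected and normally distributed, which these were not. The Ctsg window and region hold the same CpGs, as do those of Lyz2, and CpGs and regions were chosen by smallest p. Of the 36 groups, 1 stood out. At the Ctsg CpG of smallest p, control 34 was at 100%, against 85.0, 85.6 and 87.2% in the other control mice; its value rests on 11 reads.

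Y-chromosomal cytosines, which enter no comparison of the granule genes, made up 8.52 per 10000 listed cytosines in the cKO mice and 1.45 in the control mice. No label states the mice's sex, and Y content and genotype cannot be told apart in these 8 mice.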

How the results depend on the processing

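No paired analysis was possible because the mouse numbers of the cKO and control groups are not shared. The count of 23 called CpGs in the series, none of them at a granule gene, became 40 with at least 20 reads, 0 with no filter on the mean level, 1 without CpGs of extreme coverage, 0 with limma on log2 ratios and 0 with the dispersion of each CpG alone. With 10 or more reads in all 8 mice the count was 25. It was 0 to 0 over the 8 fits that left out a mouse, and 0 without cKO 25 and control 34 together, an alternative chosen after seeing the data. Called regions went to 1 with no filter on the mean level. Over the fits that left out a mouse, 0 to 1 gene windows and 0 to 1 start windows were called, the 1 in each case without control 1. The cause was not tested.

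The direction of small differences was not stable. With reads summed over CpGs the window difference was -1.42 points at Elane and 0.391 points at Ltf, and with 2 kb on either side that of Ltf was 0.697 points. Leaving out a mouse gave -1.15 to 0.637 points at the Mpo window, -0.174 to 1.54 at Elane, -0.917 to 1.5 at Prtn3 and -1.73 to 1.74 at Lyz2, where the region gave the same range. Without changing sign, it gave -3.96 to -0.119 at the Ltf window and -3.78 to -0.718 at the Camp window. The range was 7.01 to 18.8 at the Elane CpG, 1.52 to 20.7 at the Ngp CpG and 7.13 to 24.6 at the Lyz2 CpG. At these 3 CpGs every cKO mouse was at 100%, so the difference could not become negative. Leaving out a mouse gave -1.11 to 1.57 at the Prtn3 region, -6.98 to 3.81 at the Camp CpG and -4.04 to 0.0436 at the Camp region. Without cKO 25 and control 34 together, the difference was 0.399 points at the Mpo window, -0.959 at the Prtn3 window and -1.20 at the Prtn3 region. The cause was not tested. The Ltf and Ctsg CpGs and regions of smallest p kept their sign in each alternative run. The Elane region and the CpGs of smallest p at Mpo, Elane, Prtn3, Ngp and Lyz2 also kept theirs. At the Ltf CpG and region and the Ctsg CpG the groups did not overlap, so leaving out a mouse could not turn the sign. The lowest adjusted p of the Ltf CpG was 0.292, in the quasi-binomial model with no filter on the mean level.

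Levels moved with the CpGs counted. With all kept CpGs a mouse covers, Elane was at 62.9% in the cKO mice and 59.8% in the control mice. These means are not over the same CpGs in each mouse. Control 36 lacked methylated CpGs near the end of Prtn3, and control 34 lacked methylated CpGs at Gm19810 and Cfd. Over the CpGs covered in all mice the difference was 0.737 points. With 2 kb on either side Elane was at 94.5% in the cKO mice and 86.4% in the control mice. The CpGs in Prtn3 and Cfd drop out there, so these are the values of the Gm19810 region given above. With 20 reads Ctsg was at 96.7% in the cKO mice, since its differing CpG drops out. The number of mice and of covered CpGs limits what could be detected: among the 7 granule gene windows tested, the widest interval, that of Ctsg, ran from -15.1 to -2.13 points.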
